A study of Drosophila melanogaster with 29 samples.

Results

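The genes described here encode proteins that package, remodel and partition chromatin. They are 48 named *Drosophila melanogaster* genes, fixed by symbol: 13 Polycomb genes, 13 nucleosome remodeler genes, 5 heterochromatin genes, 9 genes of histone acetylation and deacetylation, 6 insulator genes and 2 lamin genes. A gene was included where its FlyBase identifier had a row in the deposited expression table, and 45 of the 48 did, among the 7602 genes of that table. *Chd3*, *Ino80* and *HDAC3* had no row under their current identifiers. The filter that chose the table's genes is not given in the sources used here and 49 identifiers had no symbol, so a missing row sets no limit on a gene's level. All 45 reached the mean of 10 normalized counts asked for in the test below, so none was lost to that filter.

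The RNA came from nuclei of photoreceptor neurons of male flies aged 10 days after eclosion. The flies carried a white (w) allele and the ry[506] allele of rosy, with UAS-GFP-Msp300KASH in the attP2 landing site together with rh1-GAL4. The driver uses the promoter of the rhodopsin gene *ninaE*, so green fluorescent protein fused to a nuclear membrane anchor marks nuclei of outer photoreceptors. All 3 libraries share this genotype, age and sex and form 1 group, and no RNA control was part of the design, so no condition could be compared. The labels do not say whether the replicates came from separate fly cultures, so the spread between them may be technical. The other 26 samples of the series, which are chromatin assays and their inputs, were not analysed here.

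The libraries held 3781302, 3051440 and 3769863 recovered reads in replicates 1, 2 and 3, and 1 read was worth 1.29, 1.49 and 1.32 normalized counts. Normalized counts are reads after scaling by one factor per library. To compare genes with each other, normalized counts were divided by gene span, the distance from the first to the last annotated base of a gene, in kilobases (kb). The 9 listed photoreceptor markers lay between 7404 (*inaD*) and 71061 (*norpA*) normalized counts, and *ninaE* had 31424, 28991 and 29956 in replicates 1, 2 and 3. Markers of other cells were far below these but not at 0. Among the lower ones, the glial gene *repo* had 28.3, 49.3 and 26.4, the cone cell and lens gene *Crys* 5.14, 10.5 and 3.97 and the muscle gene *up* 27.0, 26.9 and 25.1. Others lay above the table median of 56.8: 3 of 5 glial genes, led by *nrv2* at 379 ± 29.0 (mean ± SD, n = 3), 1 of 4 of cone and pigment cells, *ct* at 189.8 ± 18.9, and 2 of 4 of muscle, *sls* at 214 ± 18.3 and *Mhc* at 154 ± 6.83. So did 2 of 4 of fat body and blood cells, 3 of 4 rhodopsins of other photoreceptor classes and 4 of 4 of other neurons. These counts are without division by length. Per kb, 3 of 5 glial genes, 2 of 4 of these rhodopsins and 1 of 4 of fat body and blood cells lay above the table median of 19.6. For cone and pigment cells, muscle and other neurons it was 0 of 4 each. Summed over its list, the range across libraries was 770.4 to 821.5 normalized counts for glia (5 of 5 genes with a row) and 216.1 to 244.6 for cone and pigment cells (4 of 4). It was 434.6 to 444.2 for muscle (4 of 4), 322.6 to 369.1 for fat body and blood cells (4 of 5), 356.3 to 416.7 for rhodopsins of other photoreceptor classes (4 of 4) and 477.9 to 560.5 for other neurons (4 of 4). The photoreceptor list summed to between 252856 and 261560. The chromatin genes are active in most cell types, and the part of their RNA that came from other nuclei was not tested. In such bulk RNA, fewer nuclei of a type and less RNA per nucleus cannot be told apart.

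Polycomb proteins keep genes silent through cell divisions and in cells that no longer divide. Polycomb repressive complex 2 (PRC2) methylates histone H3 and complex 1 (PRC1) binds that mark, while remodelers use ATP to slide, evict or exchange nucleosomes. Heterochromatin proteins read and write the mark of constitutive silencing, acetyltransferases and deacetylases set the acetylation of active genes, and insulator proteins and lamins partition the genome within the nucleus. Fly photoreceptors do not divide, and each outer photoreceptor expresses one rhodopsin and not the others.

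Nuclear RNA of these genes spanned more than 2 orders of magnitude per kb, from 860 normalized counts for *esc* to 6.41 for *Su(var)3-9*. Both levels are uncertain because of overlapping genes, as described below. Without these 2 genes the range was under 2 orders of magnitude, from *kis*, the second highest at 379, to *Caf1-55* at 7.46. The median of the 45 genes was 37.4 normalized counts per kb of span, against 19.6 for the genes in the table, and 31 of 45 lay above the table median. Without division by length the medians were 282.5 and 56.8 normalized counts, and 35 of 45 lay above. The highest per kb were *esc*, *kis* and *E(bx)*, and the lowest were *Su(var)3-9*, *Caf1-55* and *Trl*. In the order of levels per kb, only 10 of 44 neighbouring pairs had values that did not overlap between libraries, and 9 of these lay among the top 20 genes. From *Mi-2* (31.4 ± 2.00, mean ± SD, n = 3, as for all values with ± below) downward, no gene was separated from its neighbour.

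**Figure D1:**
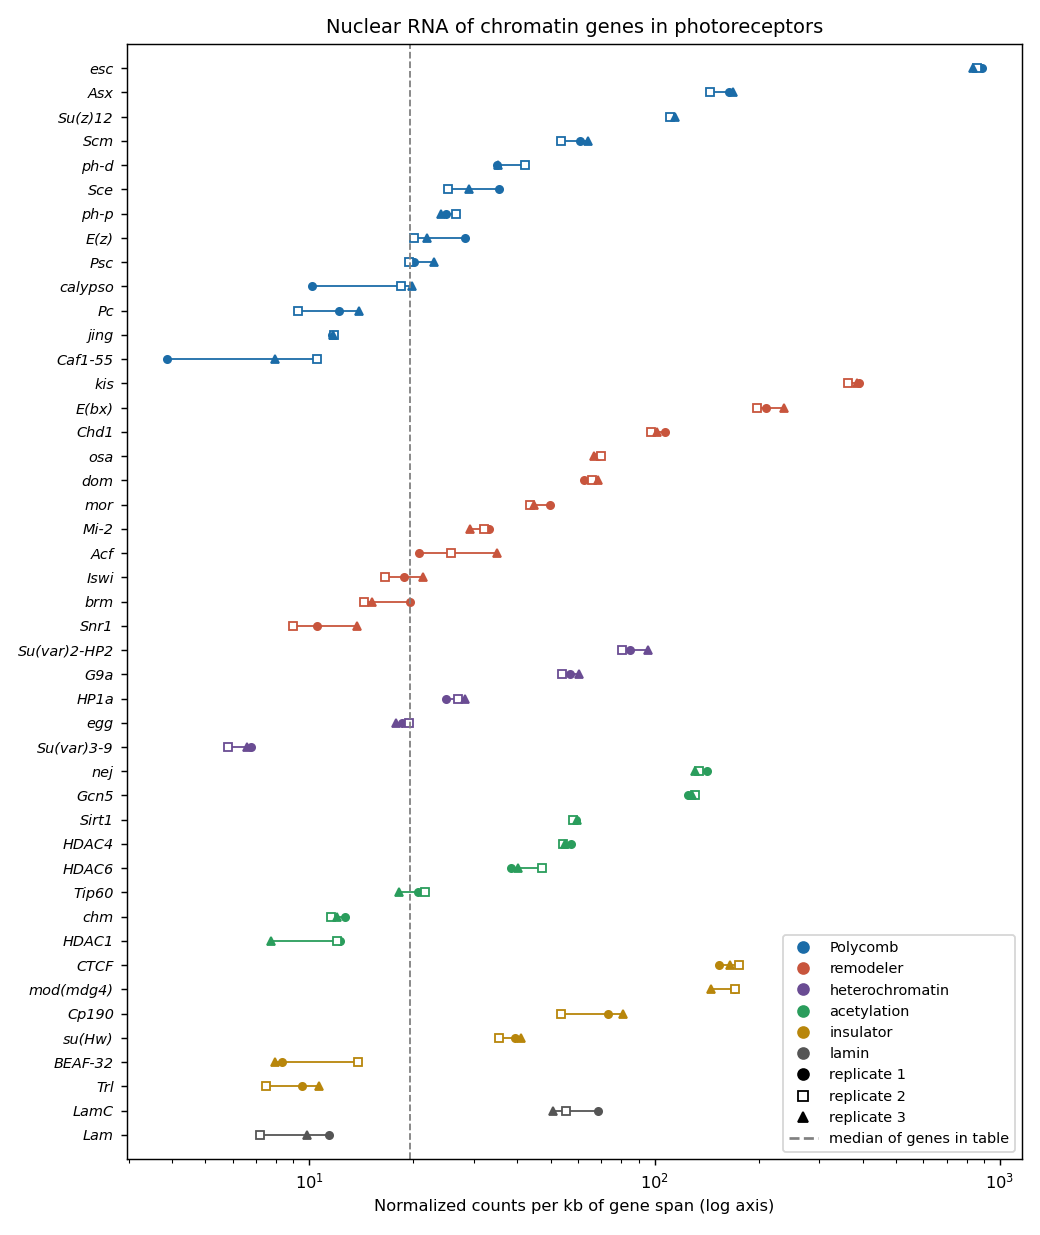
Level of each of the 45 chromatin genes with a row, in normalized counts per kb of gene span on a log axis, by class; circles, open squares and triangles are replicates 1, 2 and 3, and the dashed line is the median of the genes in the table, 19.6. *esc* and *kis* stand to the right, and each class holds genes on both sides of the line.

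The order of the classes depended on gene length. Per kb, the median insulator gene stood 1.36 ± 0.21 (log2) above the table median, the acetylation genes 1.27 ± 0.05 and the remodelers 1.21 ± 0.10. Heterochromatin genes stood at 0.45 ± 0.09, Polycomb genes at 0.40 ± 0.11 and the lamins at 0.28 ± 0.23 above it. In this paragraph such differences were taken within each library and then averaged over libraries. The first 3 classes could not be ordered, since their differences of 0.07 to 0.16 were smaller than or close to the spread between libraries (SD 0.15 to 0.27), and neither could the last 3. The remodeler median exceeded the Polycomb median by 0.81 ± 0.05 in 3 of 3 libraries. Without division by length the remodelers led, at 3.83 ± 0.08 above the table median, and their lead over Polycomb genes was 1.59 ± 0.14. Their median span was 12.8 kb, against 5.22 kb for the Polycomb genes and 4.47 kb for the insulator genes. The 45 genes together took 0.833% ± 0.019 of normalized counts. Remodelers held 0.494% ± 0.007, Polycomb genes 0.140% ± 0.004, acetylation genes 0.111% ± 0.006, insulator genes 0.0487% ± 0.0026, heterochromatin genes 0.0332% ± 0.0011 and lamins 0.00684% ± 0.00104. *kis* alone made up 38.01% ± 0.48 of what the chromatin genes took.

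Level rose with span among these genes more closely than in the table at large. Spearman's rho between span and normalized count was 0.70 across the 45 genes and 0.49 across the 7541 genes of the table with a span, as descriptions across genes that share the same libraries. Of the 10 chromatin genes under 3 kb, the median was 38.3 normalized counts, close to the 29.6 of the 3347 table genes of that span. The 7 genes of 15 kb or more, *jing*, *kis*, *osa*, *Mi-2*, *HDAC4*, *nej* and *dom*, all lay above the median of the 1215 table genes that long, 283 normalized counts. Their own median was 1400.0. Per kb the long chromatin genes had a median of 65.7, against 7.55 for table genes of that span. Whether reads in introns were counted is not given in the sources used here, so a level per kb of span can be too low for a gene with long introns.

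**Figure D2:**
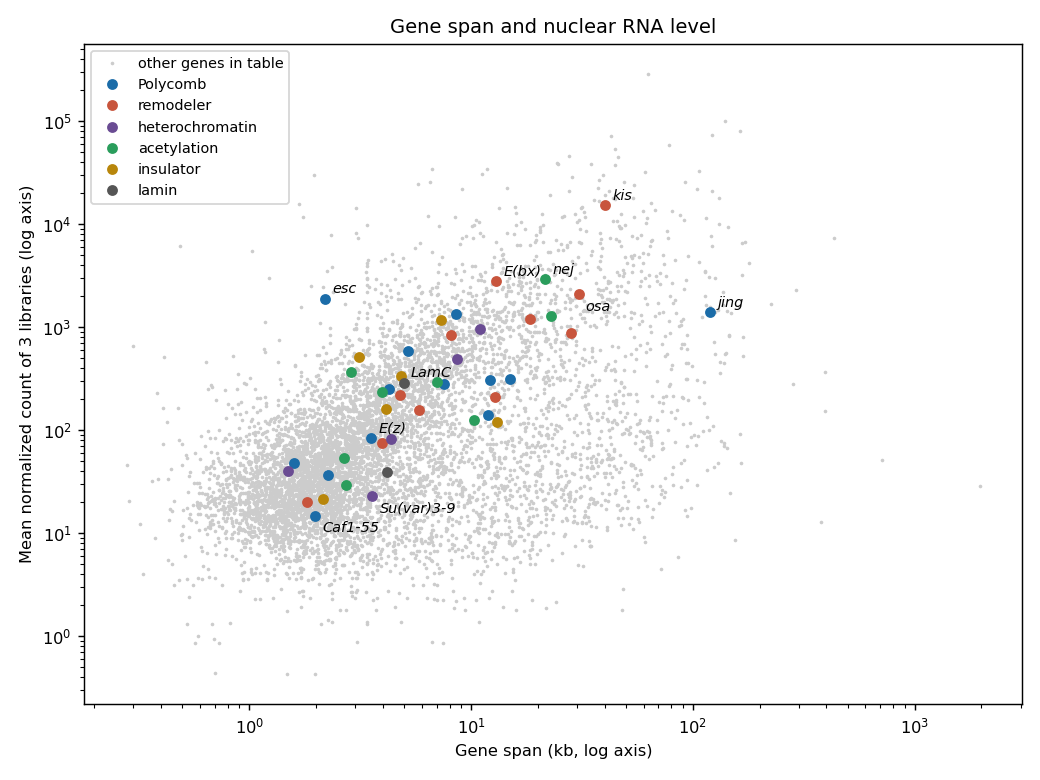
Mean normalized count of 3 libraries against gene span in kb, both on log axes; grey points are the other genes in the table and coloured points the chromatin genes by class. *esc* lies far above table genes of its span of 2.20 kb, and *jing* has the longest span, 119.8 kb.

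Among the subunits of PRC2, RNA levels differed widely. *E(z)* (FBgn0000629), the methyltransferase itself, had 100.3, 71.7 and 78.0 normalized counts in replicates 1, 2 and 3, on 78, 48 and 59 reads. *Su(z)12*, a core subunit that the enzyme needs, had 587, 577 and 596. The highest value of *Su(z)12* was 1.03 times its lowest, and all lay above every value of *E(z)*, and per kb the ratio of *Su(z)12* to *E(z)* was 4.89 ± 0.797. *Caf1-55*, the histone-binding subunit shared by PRC2, NURF and other complexes, had only 6, 14 and 12 reads, and at 7.46 ± 3.35 per kb it was the second lowest of the 45 genes. *jing*, a zinc finger protein that associates with PRC2, had 1393, 1408 and 1399 normalized counts, the smallest coefficient of variation of any chromatin gene (0.559%). Spread over its long span this came to 11.7 ± 0.0654 per kb.

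*esc* (FBgn0000588), the WD-repeat subunit that helps PRC2 bind its own mark, was the highest chromatin gene per kb. It had 1949, 1894 and 1836 normalized counts in replicates 1, 2 and 3, or 859.6 ± 25.5 per kb. It stood at percentile 99.3 of the table per kb and 94.6 without division by length. Its level relative to *E(z)* was 37.3 ± 5.7 times per kb, a log2 ratio of *E(z)* to *esc* of −5.15 ± 0.21 (*esc* was higher in every library; exact permutation of signs gave p 0.25, two-sided, and no smaller p is possible here). The paralog *escl*, which can replace *esc* in PRC2, had 6, 3 and 7 reads, and the ratio of *esc* to *escl* was 254 ± 102 per kb. The gene lies at chromosome 2L, 11827204 to 11829405 in the Release 6 plus ISO1 MT assembly, wholly inside the span of *Pde1c*, a phosphodiesterase gene at 11814156 to 11928572 on the same chromosome. *Pde1c* had 11706, 11127 and 11384 normalized counts, so the count of *esc* was 0.166 ± 0.004 of that of the gene around it. Per kb, *esc* was 8.62 ± 0.232 times as high as *Pde1c*. The annotation table gives no strand and the counting rule is not known, so the share of the *esc* reads that came from *Pde1c* transcripts was not tested, and the level of *esc* is uncertain.

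The PRC1 genes lay closer together, within about 5 times of each other per kb. *Pc*, whose chromodomain binds the PRC2 mark, had 145, 111 and 165 normalized counts and was the lowest of the 6 per kb, at 11.8 ± 2.33. *Sce*, the ubiquitin ligase of the complex, had 44, 27 and 35 reads, or 29.8 ± 5.15 normalized counts per kb. *Psc*, its partner subunit, had 302, 291 and 345 normalized counts, or 20.9 ± 1.89 per kb. *Scm*, which links PRC1 to other Polycomb proteins, was highest at 59.4 ± 5.46 per kb, 5.10 ± 0.579 times *Pc*. Per kb, the values of *Scm* lay above those of every other PRC1 gene in all 3 libraries, while those of *Sce* and *ph-p* overlapped. This order depended on length. Without division by length *Psc* had the highest mean and *Sce* the lowest, 6.67 ± 1.16 times apart, and *Scm* was 1.83 ± 0.207 times *Pc*.

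The tandem pair *ph-p* and *ph-d*, at 2126210 to 2138371 and 2115727 to 2123286 on the X chromosome, encode 2 versions of the PRC1 scaffold polyhomeotic. *ph-p* had 304, 324 and 293 normalized counts and *ph-d* 264, 318 and 266. The 2 ranges overlapped, and the log2 ratio of *ph-p* to *ph-d* was 0.12 ± 0.09 without division by length and −0.54 ± 0.09 per kb of span, so its sign depended on the length used (exact permutation p 0.25 for each). The genes are close duplicates, and reads from sequence they share may have been assigned to either or dropped, which makes both counts uncertain.

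In the Polycomb deubiquitinase PR-DUB, the 2 subunits stood far apart. *Asx*, the regulatory subunit, had 1401, 1234 and 1434 normalized counts. *calypso*, the enzyme, matched in the table under the symbol *caly*, had 23.2, 41.8 and 44.9, on 18, 28 and 34 reads. Every *Asx* value lay far above every *calypso* value, with a ratio of 10.8 ± 4.59 per kb. Among 12 other Polycomb-related genes, all 12 had a row, 11 were above the table median per kb, and levels ran from 7.15 normalized counts (*escl*) to 3479 (*corto*, a Polycomb cofactor).

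**Figure D3:**
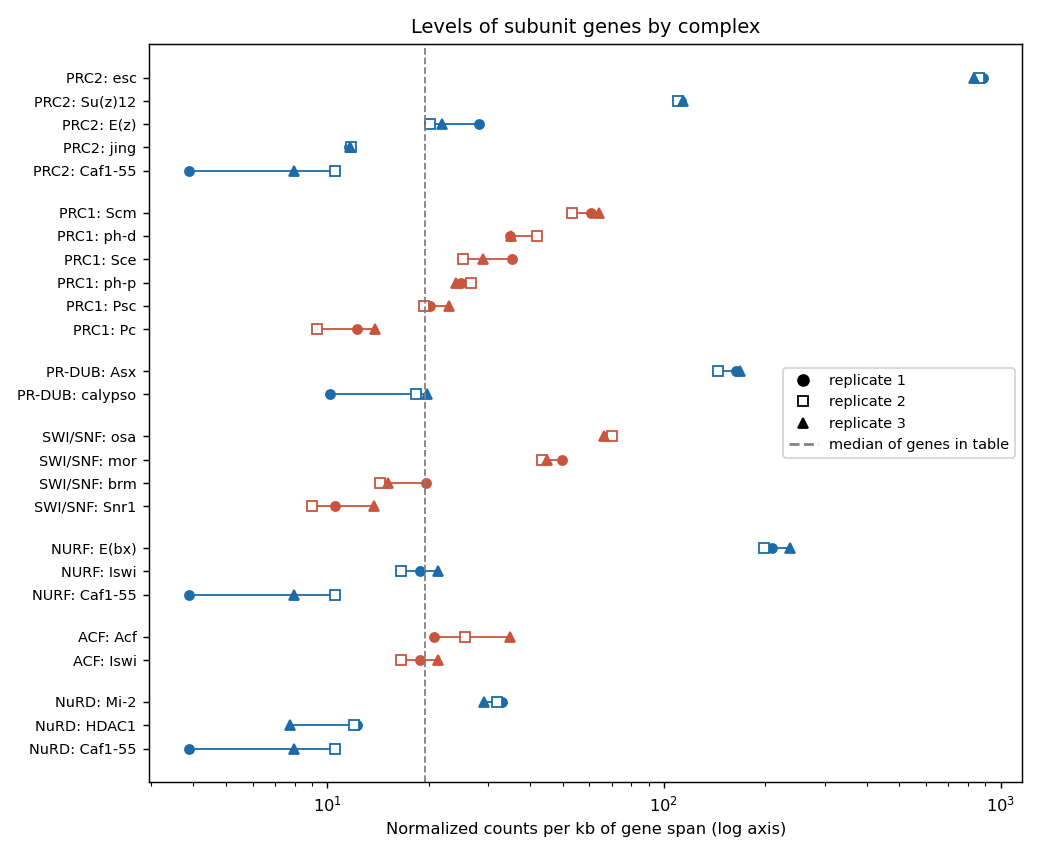
Levels of the subunit genes of 7 complexes in normalized counts per kb of span on a log axis; circles, open squares and triangles are replicates 1, 2 and 3, the 2 colours only set neighbouring complexes apart, and the dashed line is the table median of 19.6. *Caf1-55* and *Iswi* appear in each complex they belong to, and within PRC2, PR-DUB and NURF the highest and lowest subunits differ by about 10 times or more. The lowest subunits there rest on few reads: *Caf1-55* in PRC2 and NURF (6, 14 and 12) and *calypso* in PR-DUB (18, 28 and 34). The level of *esc*, the highest in PRC2, is uncertain.

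Among the remodelers the levels were led by *kis* (FBgn0266557, chromosome 2L, 210735 to 250823), a chromodomain helicase of the trithorax group that counters Polycomb silencing. It had 15622, 14528 and 15453 normalized counts in replicates 1, 2 and 3. It stood at percentile 99.4 of the table without division by length and 98.0 per kb. Per kb it reached 379 ± 14.7, which was 3.71 ± 0.0823 times *Chd1* and 12.1 ± 0.983 times *Mi-2*, both remodelers of the same CHD family. Among the 45 genes, its values overlapped those of no other gene, but per kb they overlapped those of *corto*, a further Polycomb-related gene, at 374 ± 37.2. *Chd1*, which works on transcribed genes, had 877, 795 and 830.2 normalized counts. *Mi-2*, the helicase of the NuRD deacetylase complex, had 931, 902 and 822, and 72.0% of its span is shared with *Su(Tpl)*, which had 2091, 1922 and 2226. The division of reads between those 2 genes was not tested.

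Of the SWI/SNF (Brahma) complex, *osa*, its DNA-binding subunit, stood above the ATPase. *osa* had 2089, 2140.3 and 2032 normalized counts and *brm*, the ATPase, 251, 184 and 194. *mor*, a core scaffold subunit, had 238, 208 and 214, and *Snr1*, another core subunit, 15, 11 and 19 reads. The values of *osa* lay above all others of the complex, and *osa* was 4.25 ± 0.705 times *brm* per kb. *mor* was 2.84 ± 0.261 times *brm* per kb but 1.06 ± 0.0976 times without division by length, where their values overlapped.

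In the ISWI family, the large regulatory subunit of NURF stood far above the motor, and the partner subunit of ACF did not. *E(bx)*, the largest subunit of NURF, had 2719, 2572 and 3075 normalized counts, and *Iswi*, the ATPase shared by NURF and ACF, 74.6, 65.7 and 84.6. *E(bx)* was 11.4 ± 0.482 times *Iswi* per kb, in 3 of 3 libraries. *Acf*, the partner of Iswi in ACF, had 121, 149 and 204, so its highest library was 1.68 times its lowest. Per kb *Acf* was 1.43 ± 0.29 times *Iswi* and higher within each library, but their values overlapped between libraries. Without division by length *Acf* was 2.10 ± 0.42 times *Iswi*, and their values did not overlap. The ATPases *brm* and *Iswi* could not be told apart per kb (log2 ratio −0.20 ± 0.26, exact permutation p 0.5), although *brm* had 1.47 ± 0.27 more on the log2 scale without division by length. *dom*, the motor of the complex that exchanges histone variants, had 1149.9, 1216 and 1266 normalized counts, and its span also holds small nucleolar RNA genes without a row. Of 22 other remodeler subunits, 17 had a row and 10 of those lay above the table median per kb, from *Bap55* at 13.1 ± 3.74 normalized counts to *tou* at 2043 ± 12.2.

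The heterochromatin genes included the lowest gene of the set per kb, *Su(var)3-9*. *HP1a* (FBgn0003607), a suppressor of variegation whose product reads methylated H3K9, had 37.3, 40.3 and 42.3 normalized counts, on 29, 27 and 32 reads. *Su(var)2-HP2*, a partner of its protein, had 933, 881 and 1049.7, and it remained 3.26 ± 0.241 times higher per kb. The 3 H3K9 methyltransferases were separated from each other in every library: *G9a* had 493, 469 and 522 normalized counts, *egg* 81.0, 85.1 and 78.0 and *Su(var)3-9* 24.4, 20.9 and 23.8. *G9a* was 3.07 ± 0.299 times *egg* and 8.92 ± 0.496 times *Su(var)3-9* per kb. *Su(var)3-9* lies wholly within the span of *eIF2gamma*, a translation factor gene with which it shares 1 end, and which had 21.9, 25.4 and 29.1. How reads from sequence they share were assigned is not known, so both values are uncertain. The log2 ratio of *HP1a* to *Su(var)3-9* was 1.90 ± 0.15 per kb (3 of 3 libraries; exact permutation p 0.25). Of 15 other heterochromatin genes, 13 had a row, and 11 of those lay above the table median per kb, from *HP1c* at 24.3 ± 6.47 normalized counts to *Hmt4-20*, an H4K20 methyltransferase, at 1619.9 ± 85.2.

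The acetyltransferase genes *nej* and *Gcn5* stood well above *HDAC1*, a main nuclear deacetylase. *nej*, the fly CBP, had 3075, 2905 and 2834 normalized counts, and *Gcn5*, the catalytic subunit of SAGA, 361, 376 and 370.2. Per kb they were nearly level, at 136 ± 5.73 and 128 ± 2.60, yet their values did not overlap. *Tip60* had 43, 39 and 37 reads and *chm* 102, 80 and 94, or 20.1 ± 1.78 and 12.1 ± 0.570 normalized counts per kb, both acetyltransferases of the MYST family. Of the *Tip60* span, 17.4% is shared with *tyf*, which had 1312 ± 91.2 normalized counts. *HDAC1* (Rpd3), the deacetylase of the Sin3 and NuRD complexes, had 26, 22 and 16 reads, or 10.7 ± 2.54 per kb. The log2 ratio of *HDAC1* to *Gcn5* was −3.49 ± 0.34 per kb and −3.65 ± 0.37 without division by length (lower in 3 of 3 libraries; exact permutation p 0.25).

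The deacetylase genes *HDAC4*, *HDAC6* and *Sirt1* were higher than *HDAC1*. *HDAC4*, a class IIa deacetylase that shuttles between nucleus and cytoplasm, had 1313, 1244 and 1259 normalized counts, and *HDAC6*, a tubulin deacetylase, 271, 332 and 283. *Sirt1*, an NAD-dependent deacetylase, had 235, 232 and 238, with a coefficient of variation of 1.38%. *HDAC4* was 5.43 ± 1.44 times *HDAC1* per kb, and every value of *HDAC4*, *HDAC6* and *Sirt1* lay above every value of *HDAC1*. Other listed deacetylases were divided: *Sirt2* (103 ± 6.26 normalized counts) and *Sirt7* (115 ± 9.95) lay above *HDAC1* on both scales. The values of *HDAC11* (26.9 ± 6.21) and *Sirt4* (17.9 ± 4.80) overlapped those of *HDAC1* on both scales. *Sin3A*, the scaffold that binds HDAC1, had 2694 ± 41.8 normalized counts. Of 19 other genes of acetylation, 17 had a row and 12 lay above the table median per kb, from *Atac2* at 14.5 ± 11.7 normalized counts to *fs(1)h*, a BET protein that reads acetylated histones, at 3229 ± 148.

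The insulator genes formed a graded series per kb, from 165 ± 10.7 for *CTCF* to 9.23 ± 1.60 for *Trl*. *CTCF* had 482, 549.6 and 517 normalized counts and *mod(mdg4)*, a BTB-domain insulator cofactor, 1242, 1249 and 1062. Per kb *mod(mdg4)* had 162 ± 14.6, and the pair could not be told apart (log2 ratio of *mod(mdg4)* to *CTCF* −0.02 ± 0.16, exact permutation p 0.75). Many *mod(mdg4)* transcripts are trans-spliced, and the annotation lists their separate 3′ segments as entries of their own, which had no row, so its reads may be incomplete. *Cp190*, a cofactor that many insulator proteins recruit, had 352, 257 and 389, and *su(Hw)*, the factor that binds the gypsy insulator, 163, 146 and 169. They lay between, at 69.2 ± 14.2 and 38.6 ± 2.87 per kb. *Trl*, the GAGA factor, had 125, 98.6 and 140.1 normalized counts and *BEAF-32*, a promoter-bound insulator protein, 14, 20 and 13 reads. *CTCF* was 17.3 ± 4.15 times *BEAF-32* per kb, and every *CTCF* value was above every *BEAF-32* and *Trl* value. *Trl* and *BEAF-32* could not be told apart per kb (ratio 1.01 ± 0.416), but *Trl* was 6.13 ± 2.52 times *BEAF-32* without division by length. Of 14 other insulator and cohesin genes, 12 had a row and 9 lay above the table median per kb, from *ZIPIC* at 10.0 ± 2.12 normalized counts to *Nipped-B*, the cohesin loader, at 2336 ± 349.8.

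The 2 lamin genes were unequal. *Lam*, the B-type lamin, had 47.6, 29.9 and 41.0 normalized counts, and *LamC*, the A-type lamin typical of differentiated cells, 339.6, 275 and 252. All *LamC* values lay above all *Lam* values, and per kb *LamC* was 6.29 ± 1.30 times as high (log2 ratio of *Lam* to *LamC* −2.51 ± 0.26; exact permutation p 0.25). *LamC* (chromosome 2R, 14570810 to 14575771) lies wholly inside the span of *ttv*, an enzyme gene of heparan sulfate synthesis with 459, 375 and 432 normalized counts, or 6.85 ± 0.698 per kb. The part of the *LamC* reads that came from *ttv* transcripts was not tested, and per kb *LamC* was 8.52 ± 1.09 times *ttv*. Of 8 other genes of the nuclear envelope, 5 had a row, from *bocks* at 25.7 ± 6.63 normalized counts to *klar*, a KASH-domain protein that positions nuclei, at 4288 ± 195.

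**Figure D4:**
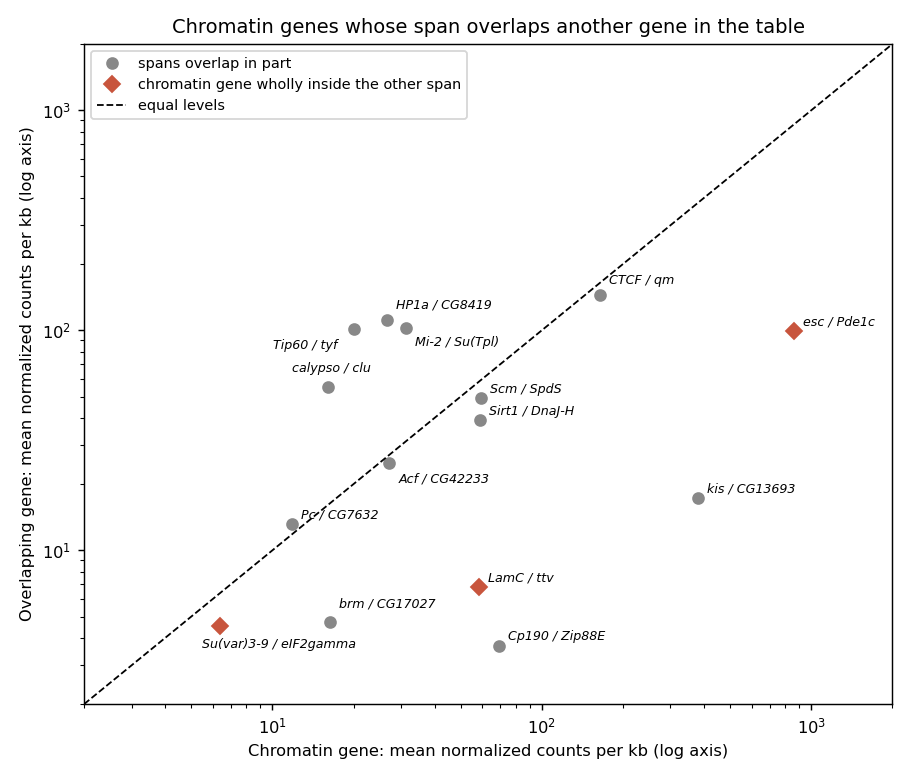
Mean level of the 15 chromatin genes whose span overlaps another gene with a row, against the level of that gene, both in normalized counts per kb on log axes; diamonds are chromatin genes wholly inside the other span, and the dashed line marks equal levels. *esc* and *LamC* lie to the right of the line, 8.62 and 8.52 times as high per kb as *Pde1c* and *ttv*.

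Such overlaps were not particular to these genes. The spans of 15 of the 45 (33.3%) overlapped another gene in the table, against 33.1% of the table genes with a span. With annotated entries that had no row, 28 of the 45 overlapped another entry, a share not computed for the table. Among these, *egg* shared 95.9% of its span and *BEAF-32* 38.3% with antisense RNA genes, and *Trl* 76.5% with *CG42507*. The origin of their reads was not tested. For 8 of the 15 the overlapping gene had the higher normalized count: *calypso*, *CTCF*, *esc*, *LamC*, *Mi-2*, *HP1a*, *Su(var)3-9* and *Tip60*. For *HP1a* and *CTCF* the shared stretch was only 12 and 45 bases, 0.80% and 1.43% of their spans. Leaving out these 8 was a comparison added after seeing the data. The rule uses a gene's own count and takes low genes more readily, so the medians without them cannot show an effect of overlap. Taken over mean levels and without division by length, the log2 median above the table median went from 0.51 to 3.10 for heterochromatin genes. That class lost its lowest genes, *HP1a* and *Su(var)3-9*. The remodelers, without *Mi-2*, went from 3.85 to 2.89, and the lamin class kept only *Lam*, at −0.51. The 7 X-linked genes had a median of 41.9 normalized counts per kb and the 38 autosomal genes had medians from 19.9 (2R) to 58.9 (2L) by chromosome arm, in these male flies. Each arm held only 7 to 11 of the genes. The table medians per kb were 19.7 for the X and 18.7 (3R) to 20.6 (3L) for these autosomal arms. A difference between chromosomes was not tested.

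To see which chromatin genes varied between libraries, reads were tested against counting error by a chi-square test across all genes with a mean of at least 10, with Benjamini-Hochberg adjustment. It called 8 of the 45 chromatin genes, against 674 of 6903 genes tested, or 9.76%. At an unadjusted p under 0.05 it would have passed 11 and 1442. Over all genes the share called rose with depth, so the chromatin genes were also set beside table genes of like depth. Of genes with a mean of at least 1000 normalized counts, 4 of 10 chromatin genes were called, against 48.7%. From 200 to 1000 it was 3 of 17, against 14.4%, from 50 to 200 it was 1 of 9, against 3.12%, and from 10 to 50 it was 0 of 9, against 2.28%.

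The called genes were *kis* (adjusted p 3.56e-06), *E(bx)* (9.99e-07), *Cp190* (0.00128), *Acf* (0.00358), *mod(mdg4)* (0.0122), *Asx* (0.0313), *Su(var)2-HP2* (0.0391) and *LamC* (0.0475). Their differences were small: the highest library exceeded the lowest by 1.08 times for *kis*, 1.16 for *Asx*, 1.51 for *Cp190* and at most 1.68, for *Acf*. *E(bx)*, *Cp190*, *Acf*, *Asx* and *Su(var)2-HP2* were highest in replicate 3, *LamC* and *kis* in replicate 1 and *mod(mdg4)* in replicate 2. Over all called genes, the highest library was not tallied. Scaling libraries to equal totals put *Asx* highest in replicate 1 and ended the calls of *kis*, *Asx* and *Su(var)2-HP2* (adjusted p 0.125, 0.617 and 0.397). Trimmed mean scaling kept the calls of *kis*, *E(bx)*, *Cp190*, *Acf* and *mod(mdg4)*. Without replicate 3 the calls of *E(bx)*, *Acf*, *mod(mdg4)*, *Asx*, *Su(var)2-HP2* and *LamC* were lost, without replicate 2 those of *kis*, *Cp190*, *Asx* and *Su(var)2-HP2*, and without replicate 1 those of *Acf* and *LamC*. These 3 settings compare 2 libraries each.

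**Figure D5:**
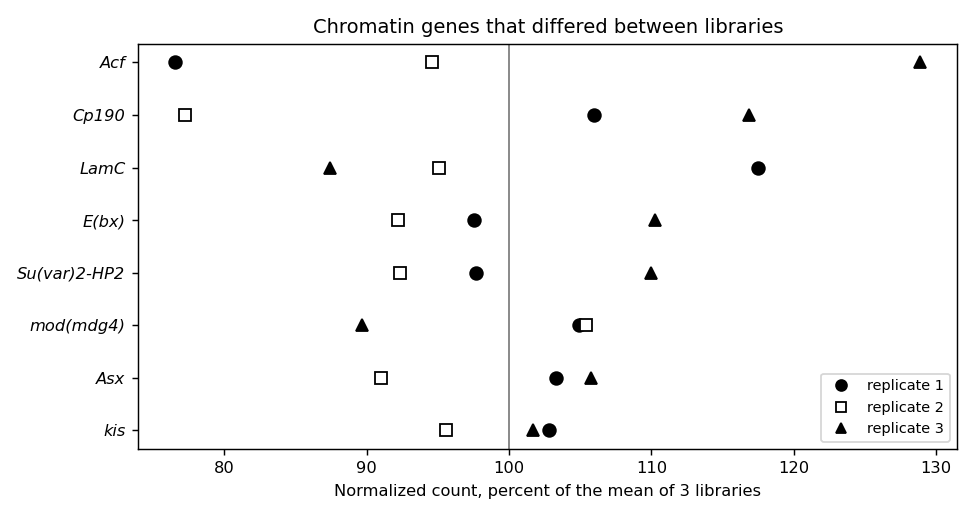
Normalized count in each library as a percent of the mean of 3 libraries, for the 8 chromatin genes called by the chi-square test; circles, open squares and triangles are replicates 1, 2 and 3. Highest and lowest library differ by a factor of 1.68 for *Acf* and 1.08 for *kis*.

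Of 90 other chromatin genes on the lists, 76 had a row, 75 were tested and 10 were called, against the background of 9.76%. They were *pho*, *Su(z)2*, *sxc* and *corto* among the Polycomb genes, *Arp8*, *Atac2*, *Nipped-A*, *klar*, and the cohesin genes *vtd* and *Nipped-B*. The background of 9.76% is over all depths, and this list was not set beside table genes of like depth. Of the called genes, *Su(z)2*, *sxc*, *corto*, *Nipped-A*, *klar* and *Nipped-B* had means of at least 1000 normalized counts, where 48.7% of table genes were called. As deposited, 8 of the 10 called genes were highest in replicate 3, and 7 with equal totals. The like share over all called genes was not computed. Over all genes, the 674 calls fell to 243 without replicate 3. *pho*, the DNA-binding factor that recruits Polycomb proteins, had 783, 678 and 966 normalized counts (adjusted p 2.59e-07) and *Nipped-B* 2284, 2015 and 2709 (adjusted p 4.45e-15). Only 2 of the 10 differed by at least 2 times, both at low counts: *Arp8* with 15, 17 and 2 reads (adjusted p 0.0193) and *Atac2* with 11, 2 and 20 (adjusted p 0.0191). The median of the 76 was 34.2 normalized counts per kb, close to the 37.4 of the 45 genes above.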

How the data were processed

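The authors deposited 1 table of log2 values for 3 nuclear RNA-seq libraries. The submitters' processing notes name DESeq2, Trimmomatic, STAR, SAMtools and the builds dm6 and BDGP6, with no role. The counting program, annotation and strandedness are not given in the sources used here. Undoing the log2 (with its added 1) left values that were whole multiples of a library-specific step, for 100% of values at a tolerance of 0.001. These multiples were taken as reads. 0 columns were left unused.

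FlyBase identifiers were matched to symbols for 7553 genes. Spans and coordinates came from RefSeq's Release 6 plus ISO1 MT, the release that dm6 names. No exon or protein annotation was used here, so the planned division by exon length gave way to gene span, and no sequences are shown.

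Values were computed with scipy 1.17.1 and pandas 2.3.3 on numpy 2.4.6, under Python 3.11.15. Chi-square tests compared recovered reads with the size factors (threshold 0.05). On simulated data of 6903 genes with 200 raised 3-fold in replicate 1, the test recovered 193 with 6 false calls. The simulated reads held counting error alone and the 3-fold change exceeds that of any called member (at most 1.68, *Acf*). The simulation therefore checks the computation and cannot bear on the calls in the real libraries. Log2 values use a pseudocount of 1. Ratios have exact two-sided sign-flip permutation tests. Chi-square tests cover counting error only, and reads may include PCR copies.

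Members and lists were chosen with earlier results of these data known. All 48 members are named. Of the other chromatin genes, the highest and lowest of each class and those called with a ratio of at least 2 are named. *Sin3A*, *pho*, the other deacetylases, the other called genes, the markers named singly and the pairs compared without a p were chosen after their values were seen.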

Additional observations from a re-analysis of the deposited data

How the results depend on the processing

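No paired analysis was possible because all RNA libraries form 1 group. The 8 calls among chromatin genes became 5 under trimmed mean scaling, 4 at a threshold of 0.01, and 2 to 6 with 1 replicate left out, fewest without replicate 3. Over all genes, 674 calls (9.76% of genes tested) became 604 (8.75%) under trimmed mean scaling and 448 (6.49%) at 0.01. With 1 replicate left out they became 243 to 681 (3.52% to 9.87%). Equal totals added calls for *osa*, *Mi-2* and *nej* (adjusted p 0.0086, 0.0325 and 0.00345), with replicate 2 shifted by 0.07 (log2).
Class medians above the table median (log2, not divided by length) moved as follows. Here they were taken over the mean levels of the libraries, so they differ slightly from the averages of library medians given for the classes above. Polycomb genes went from 2.29 to 2.13 with a pseudocount of 10, 1.98 against tested genes only (mean 10 or more), 0.35 per kb, and 2.21 to 2.34 with 1 replicate left out. Remodelers went from 3.85 to 3.66, 3.54 and 1.19 under the same settings, heterochromatin genes from 0.51 to 0.45, 0.20 and 0.43, and acetylation genes from 2.19 to 2.03, 1.88 and 1.26. Against tested genes only, and per kb, insulator genes went from 2.00 to 1.69 and 1.36 and lamins from 0.91 to 0.59 and 0.28. Without genes overlapping a higher gene, chosen after seeing the data, the medians were 2.89 for remodelers, 3.10 for heterochromatin, 2.36 for acetylation, 1.48 for insulator genes and −0.51 for lamins. Since that choice used the genes' own counts, these medians cannot show an effect of overlap. Without division by length, ratios turned sign for *ph-p* to *ph-d* (0.12), *brm* to *Iswi* (1.47) and *mod(mdg4)* to *CTCF* (1.19), the last also with 1 replicate left out (−0.11 to 0.055). The causes were not tested.
Depth limits *Caf1-55*, *Snr1*, *BEAF-32* and *Su(var)3-9*, with at most 20 reads in any library. Division by exon length was not run.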
